A study of Homo sapiens with 33 samples.

Results

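The NF-kB factors and their inhibitors were 10 genes: the 5 subunits NFKB1, NFKB2, RELA, RELB and REL, the inhibitors NFKBIA, NFKBIB and NFKBIE, the atypical inhibitor family member BCL3, and the feedback inhibitor TNFAIP3. A probe set belonged to the group when the platform annotation gave it one of these symbols, which took 17 of 22215 probe sets and 10 of 11964 named genes. Both probe sets of BCL3 also carried the symbol of a microRNA, MIR8085, and the reference transcript listed for 204908_s_at was that of BCL3. All 10 genes passed the filter on low signals in both experiments.

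The study measured total RNA of 2 human cell lines of ALK-positive anaplastic large cell lymphoma on 33 Affymetrix HG-U133A arrays in 11 groups of 3. TS is a line subcloned out of Sup-M2, and Su-DHL1 is the other line. In the hairpin experiment 7 groups carried an inducible hairpin: TS cells with the ALK hairpin A5 and doxycycline (1 microg/ml) for 84 h, TS cells with the mutated hairpin A5M and doxycycline for 84 h, TS cells with A5 and no doxycycline at 84 h, TS cells with A5 with and without doxycycline at 72 h, and Su-DHL1 cells with A5 with and without doxycycline at 72 h. All 7 had been transduced with the repressor vector and a hairpin vector with GFP, sorted for both fluorescent reporters after a short induction, and sorted again to remove cells that were green without doxycycline, so each population was a selected pool. The other 4 groups were TS cells of the compound experiment: the ALK inhibitors A2 and A3 and the compound A1, each at 300 nM for 6 h, and the group U. A1 is called a mock compound in the design text and an inhibitor in its sample labels, U is described as untreated in the labels and as diluent in the design text, and the inhibitors are described as pyrrolocarbazole-derived. No label says that the 3 samples of a group came from separate cultures, so the p-values rest on a spread that may be technical.

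NF-kB is a family of dimeric transcription factors that in resting cells are held in the cytoplasm by the inhibitors of the IkB family. Receptors of the tumour necrosis factor family, CD30 (TNFRSF8) of lymphoma cells among them, activate kinases that mark the inhibitors or the precursor of NFKB2 for the proteasome, which frees the dimers to enter the nucleus. NFKBIA, TNFAIP3, NFKB2 and RELB are known target genes of NF-kB themselves and close feedback loops. BCL3 differs from the cytoplasmic inhibitors in that it works in the nucleus with dimers of the NFKB1 and NFKB2 products.

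ALK, the target of the hairpin, was lower on every induced A5 array. It lay between 201.1 and 289 in induced A5 cells against 1927 to 2100 in uninduced cells of TS at 84 h, and 1652 to 1739 in A5M cells. Its means were 330 in induced and 1823 in uninduced TS cells at 72 h, and 637 in induced and 2966 in uninduced Su-DHL1 cells. All 5 ALCL markers were above the 40th percentile of most arrays, as were 5 of 7 T-cell markers measured, with CD3D at a mean of 1030 and CD7 at 6.21, while none of 4 B-cell markers was. Of 4 myeloid markers only CSF1R was above it on most arrays, and CD14 and LYZ averaged 5.12 and 1.86. Replicate arrays of a group correlated at 0.969 to 0.985 (Pearson, log2 values across genes).

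The sequences upstream of these genes are shown because 7 of the 8 genes with an entry in the RefSeq promoter table (GRCh38.p14) held a match to the kappaB consensus, the 10-base site bound by NF-kB dimers, within 250 bases before to 50 bases after a start site. The consensus was searched on both strands. Counted by promoter, 8 of the 13 promoters of these genes held a match, beside 5.91% of all 35116 promoters of that length. Windows around the matches follow on the strand of the gene, 5′ to 3′, with the matching bases in capitals, and overlapping matches of both strands run together.
NFKB1, chr4:102501300-102501329, plus strand: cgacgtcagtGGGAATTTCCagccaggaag
NFKB2, chr10:102394461-102394519, plus strand: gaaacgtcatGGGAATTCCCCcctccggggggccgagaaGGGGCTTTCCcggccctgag
NFKB2, chr10:102395674-102395703, plus strand: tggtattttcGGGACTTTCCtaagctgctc
NFKB2, chr10:102395519-102395548, plus strand: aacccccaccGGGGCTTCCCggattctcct
REL, chr2:60881517-60881547, plus strand: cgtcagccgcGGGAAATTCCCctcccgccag
NFKBIA, chr14:35404811-35404840, minus strand: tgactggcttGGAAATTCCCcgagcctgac
NFKBIB, chr19:38899931-38899961, plus strand: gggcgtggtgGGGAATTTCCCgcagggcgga
BCL3, chr19:44748700-44748729, plus strand: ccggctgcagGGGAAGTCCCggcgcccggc
TNFAIP3, chr6:137867182-137867223, plus strand: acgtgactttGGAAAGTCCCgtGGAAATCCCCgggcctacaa
The match of NFKBIA opened 81 bases before the start site, the first of TNFAIP3 67 bases before it, and that of BCL3 2 bases after it. Some genes had several start sites: 1 of 2 promoters of NFKB1, 2 of 3 of NFKB2 and 1 of 2 of NFKBIB held a match. RELA had none in either of its 2 promoters, RELB and NFKBIE were not matched to the table, and the letters TTCNNNGAA of a STAT-type site, found in 7.66% of all promoters, occurred in 1 RELA promoter only among the 13 promoters of these genes. A match is a stretch of letters and was not tested for binding. Since NFKBIA and BCL3 are the genes whose signals moved most, the 250 bases before the start of NFKBIA at chr14:35404750-35404999, minus strand, are given whole, with the match in capitals.
NFKBIA upstream: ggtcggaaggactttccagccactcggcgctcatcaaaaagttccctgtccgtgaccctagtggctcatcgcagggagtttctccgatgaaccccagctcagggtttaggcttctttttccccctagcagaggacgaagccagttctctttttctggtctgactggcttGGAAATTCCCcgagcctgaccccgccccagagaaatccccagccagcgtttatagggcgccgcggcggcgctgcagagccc

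**Figure D1:**
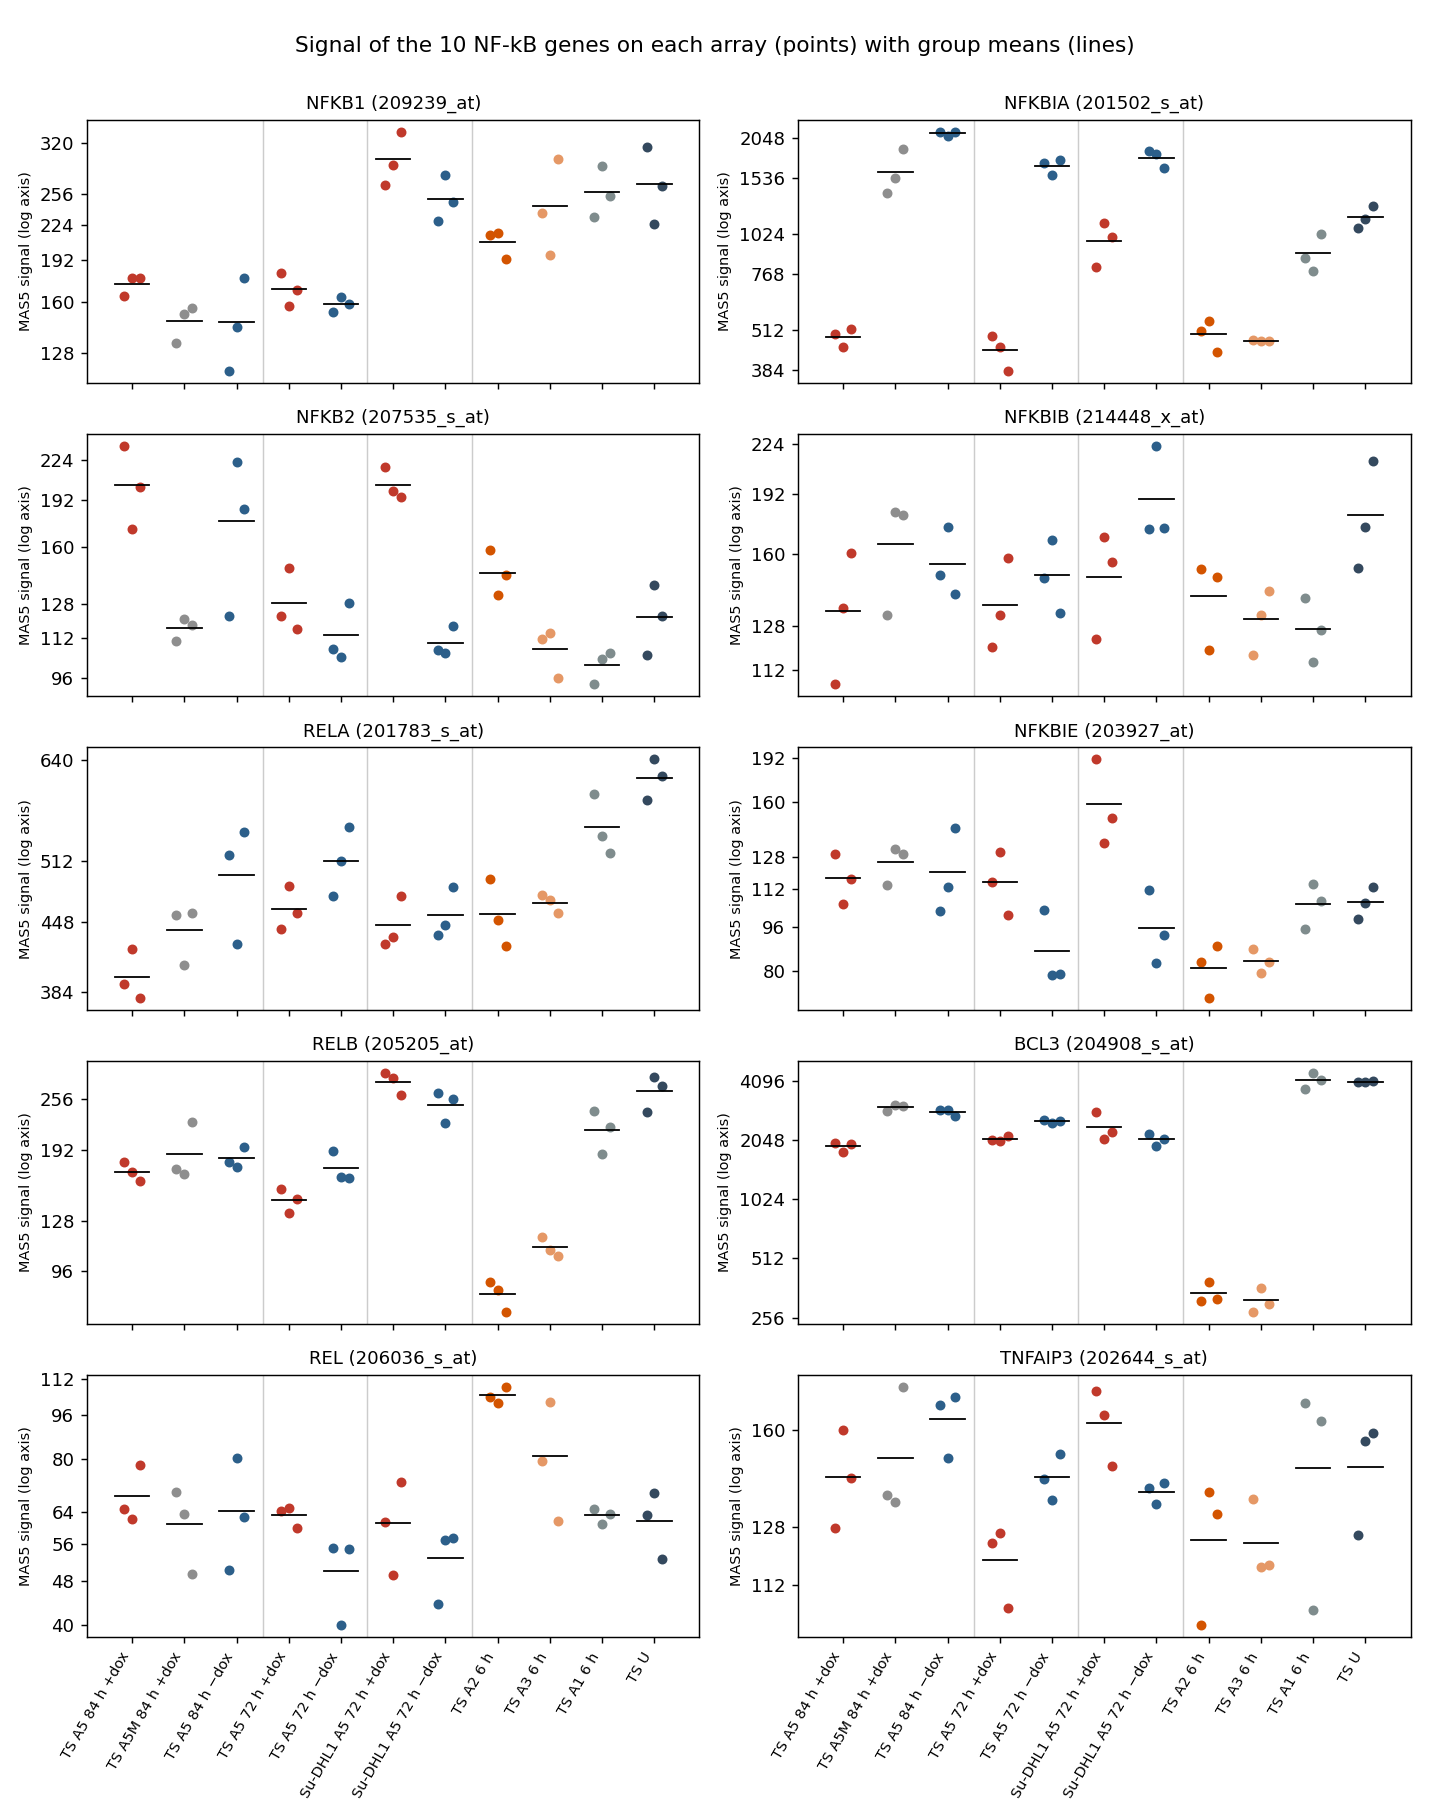
MAS5 signal of the 10 genes on each array, 1 panel a gene by its brightest probe set, with a log axis per panel and the 11 groups along the x axis (+dox, with doxycycline; −dox, without). Points are arrays and lines are group means; NFKBIA is lowest in induced A5 cells of TS and in A2 and A3, and BCL3 lies at 273.8 to 389.7 in A2 and A3 against 3731 to 4522 in A1.

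The levels of the 10 genes are MAS5 signals, an intensity that each array scales to a common target, and log2 fold changes are on the scale of log2(signal + 11). Calls required an adjusted p under 0.05 from limma, with Benjamini-Hochberg adjustment over all genes of the fit. Where cells of one population differ in state, less RNA per cell and fewer expressing cells cannot be told apart in such bulk samples.

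In TS cells with the A5 hairpin, NFKBIA fell about 4-fold and BCL3 and RELA fell less, while no other member passed the test. At 84 h, 3 of the 10 members were called, all lower, against a background of 40.7% of all genes tested called, with 21.8% higher and 18.9% lower. At 72 h, 2 of the 10 were called, both lower, against 34.2% of all genes called, with 19% higher and 15.2% lower. The median log2 fold change of the 10 was -0.14 at 84 h beside 0.06 over all genes, and -0.14 at 72 h beside 0.07.

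NFKBIA encodes IkB alpha, the main cytoplasmic inhibitor and a fast feedback target of NF-kB. Its signals at 84 h were 497.4, 452.2 and 514.4 in induced A5 cells, against 2135.3, 2083.8 and 2141.2 in uninduced cells. At 72 h they were 491.4, 454.3 and 381.2 in induced cells, against 1716.7, 1563.9 and 1743.1 in uninduced cells. At both times every induced array lay below every uninduced one. The log2 fold change was -2.10 ± 0.12 (SE) at 84 h, a 4.28-fold lower level (adjusted p = 7.11e-13), and -1.90 ± 0.12 at 72 h, 3.73-fold lower (adjusted p = 9.16e-12). The difference between the times, -0.20 with a 95% interval of -0.54 to 0.15, was not called.

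BCL3 had signals of 1980.8, 1788.8 and 1957.9 in induced cells at 84 h, against 2935.2, 2912.4 and 2732.2 in uninduced cells. At 72 h the values were 2064.4, 2032.2 and 2166.9 in induced and 2608.6, 2526.5 and 2573.4 in uninduced cells. The groups did not overlap at either time. The log2 fold change was -0.58 ± 0.09 at 84 h (1.5-fold lower, adjusted p = 1.42e-05) and -0.30 ± 0.09 at 72 h (1.23-fold lower, adjusted p = 0.0128). The other probe set of BCL3, 204907_s_at, had log2 fold changes of -0.44 at 84 h (adjusted p = 0.0526) and -0.30 at 72 h (adjusted p = 0.226), which did not pass the threshold.

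RELA, the p65 subunit with the transactivation domain, had signals of 390.5, 421.9 and 378.7 in induced cells at 84 h, against 519.3, 426.9 and 545.5 in uninduced cells. The second uninduced array lay just above the highest induced one. The log2 fold change was -0.31 ± 0.10 (adjusted p = 0.0137), and it no longer passed without induced replicate 3, uninduced replicate 1 or uninduced replicate 3, with adjusted p of 0.0545, 0.0554 and 0.0794. The call was also lost with all probe sets averaged (-0.29, adjusted p = 0.0716) and with only the arrays compared (-0.31, adjusted p = 0.066). By the other probe set of RELA, 209878_s_at, the log2 fold change was -0.26 (adjusted p = 0.31). At 72 h RELA averaged 461 ± 22.4 in induced and 513 ± 39.3 in uninduced cells (SD, n = 3 each) and was not called.

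By the probe set that stood for its gene, none of the remaining subunits and inhibitors passed the test in TS cells. NFKB2, the precursor p100 of the non-canonical subunit p52, averaged 203 ± 33 in induced and 177 ± 50.8 in uninduced cells at 84 h. Uninduced replicate 1 stood at 122 there, against 222.5 and 185.4 in the other two arrays of that group. NFKB1, the p105 precursor of p50, averaged 173 ± 8.03 in induced and 146 ± 29.8 in uninduced cells. Its fold change, 0.24 with adjusted p = 0.143, passed the threshold without uninduced replicate 3 (0.38, adjusted p = 0.0225). RELB, the partner of p52, gave -0.10 at 84 h and -0.24 at 72 h, neither called. REL, the lymphoid subunit c-Rel, gave 0.09 at 84 h by its brighter probe set and 1.00 (adjusted p = 0.00468) by 206035_at, whose signals reached the 40th percentile of the array on only 10 of 33 arrays. NFKBIB and NFKBIE, the beta and epsilon inhibitors, gave -0.21 and -0.02 at 84 h. At 72 h NFKBIE was at 115.5, 130.2 and 100.6 in induced cells, against 102.9, 78.9 and 79.1 in uninduced cells, with overlap at 1 array (0.37, adjusted p = 0.0766). Without uninduced replicate 1 it was called, at 0.48 (adjusted p = 0.0392). TNFAIP3, the ubiquitin-editing enzyme A20, had a log2 fold change of -0.18 at 84 h and -0.26 at 72 h. After quantile normalization RELB (-0.33, adjusted p = 0.0344) and TNFAIP3 (-0.35, adjusted p = 0.035) also passed at 72 h, which made 4 of the 10.

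**Figure D2:**
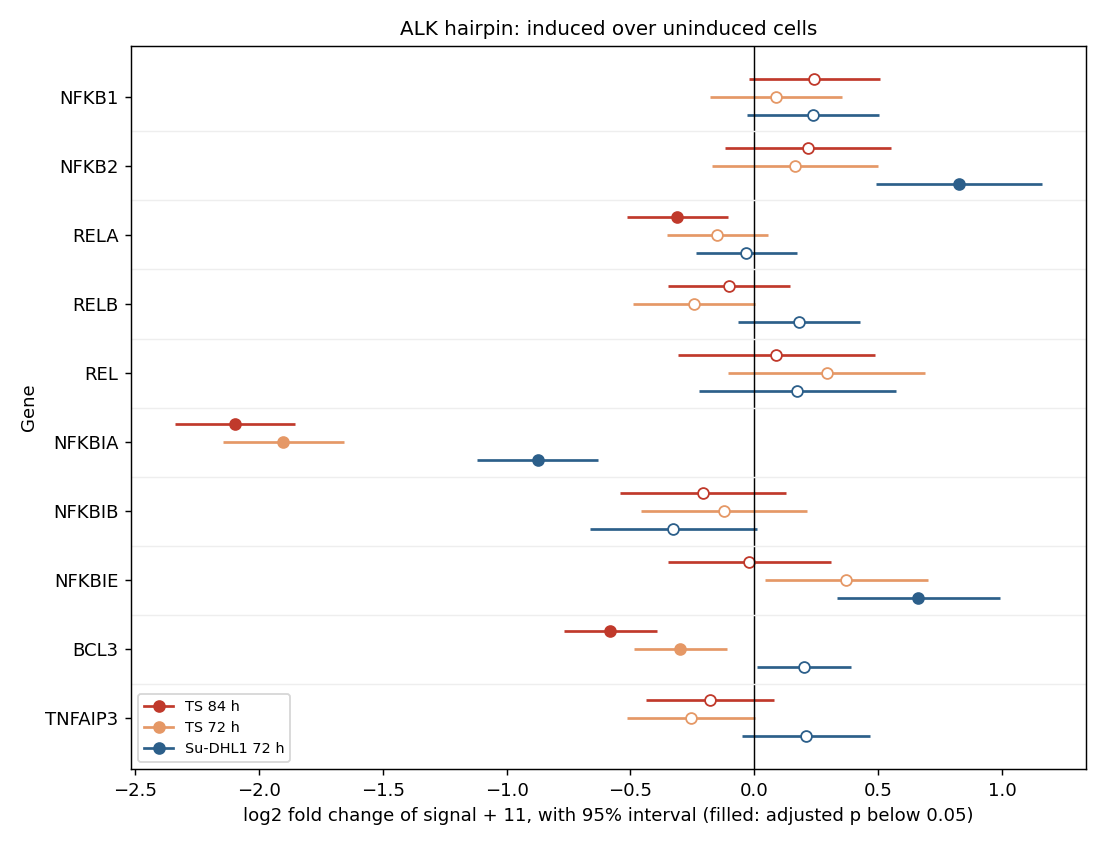
Log2 fold change of signal + 11 in induced over uninduced A5 cells for the 10 genes (rows), for TS cells 84 h and 72 h after induction and Su-DHL1 cells 72 h after it, with 95% intervals; filled points passed an adjusted p below 0.05. NFKBIA is at -2.10, -1.90 and -0.87, and of the 3 comparisons plotted NFKB2 and NFKBIE are called in that of Su-DHL1 only, a difference between the lines that was not called for either gene.

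In Su-DHL1 cells the hairpin gave another set of calls: NFKB2 and NFKBIE rose and NFKBIA fell, 3 of the 10 members against a background of 24.6% called, 13.9% higher and 10.7% lower. NFKBIA was at 804.3, 1113.1 and 1002.6 in induced cells, against 1860, 1824.2 and 1656 in uninduced cells, with no overlap. Its log2 fold change was -0.87 ± 0.12, a 1.83-fold lower level (adjusted p = 5.38e-06). NFKB2 was at 218.4, 198.3 and 194.2 in induced cells, against 107, 105.6 and 117.2 in uninduced cells. Each induced array was above every uninduced one, and the log2 fold change was 0.83 ± 0.16 (1.77-fold, adjusted p = 0.000493). The dimmer NFKB2 probe set 209636_at had 99.9, 81.8 and 61.9 in induced cells, and its 19.9, 24.8 and 16.9 in uninduced cells were all under the 40th percentile of the array, so no fold is given for it. NFKBIE was at 190.6, 135.3 and 149.6 in induced cells, against 111.4, 82.8 and 93 in uninduced cells, a log2 fold change of 0.66 ± 0.16 (1.58-fold, adjusted p = 0.0032). The NFKBIE groups did not overlap, although induced replicate 1 stood well above the other two. BCL3 averaged 2400 ± 397 in induced and 2072 ± 150 in uninduced cells, with a log2 fold change of 0.20 that was not called (adjusted p = 0.119). It passed after quantile normalization (0.28, adjusted p = 0.0157) and without induced replicate 2 (adjusted p = 0.0302).

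The response at 72 h differed between the lines for 2 of the 10 members, where 2.9% of all genes were called, 1.69% as higher in Su-DHL1 and 1.21% as lower. For NFKBIA the response of Su-DHL1 minus that of TS was 1.03 ± 0.17 on the log2 scale (adjusted p = 0.000593), which stands for the smaller fall in Su-DHL1. That call kept its side of the threshold without each of the 12 arrays in turn, and with the ACTB ratio described below as a covariate the difference was 0.87 (adjusted p = 0.0542). For BCL3 it was 0.50 ± 0.13 (adjusted p = 0.0316), with BCL3 lower in induced TS cells and not called in Su-DHL1 cells. The BCL3 call was lost on leaving out any of 8 of the 12 arrays in turn, with adjusted p of 0.0561 to 0.102, among them Su-DHL1 induced replicate 1 (0.37, adjusted p = 0.0921), and by 204907_s_at the difference was 0.22 (adjusted p = 0.804). NFKB2 and NFKBIE gave differences of 0.66 (adjusted p = 0.136) and 0.29 (adjusted p = 0.668), so a difference between the lines was not shown for them. Fitted on only the arrays compared, that of NFKB2 passed (0.66, adjusted p = 0.038). By limma, none of the 10 members was called for a difference in response between 84 h and 72 h in TS cells. Of all genes 1.28% were called, 0.297% higher and 0.978% lower at 84 h. BCL3 alone, 1 of the 10, was at an unadjusted p below 0.05 (-0.28, adjusted p = 0.419). The share of all genes at that unadjusted threshold is not given.

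Before induction the lines differed in 3 of the 10 members, against 21.2% of all genes called, 10.8% higher and 10.4% lower in Su-DHL1. NFKB1 was at 228.1, 277.9 and 246.9 in Su-DHL1 against 152.9, 163.5 and 158.6 in TS cells, 1.54-fold higher (adjusted p = 0.000872). RELB was at 265.7, 223.2 and 256.1 in Su-DHL1 against 190.6, 164.1 and 163.6 in TS cells, 1.41-fold higher (adjusted p = 0.00333). BCL3 was 1.24-fold lower in Su-DHL1, 2072 ± 150 against 2570 ± 41.2 (SD, n = 3 each, adjusted p = 0.0154). The BCL3 call ended without TS replicate 1 or Su-DHL1 replicate 2 (adjusted p of 0.0522 and 0.0887), and by 204907_s_at the difference was -0.10 (adjusted p = 0.774). With the ACTB ratio described below as a covariate none of the 3 was called, at 0.55 for NFKB1 (adjusted p = 0.054), 0.37 for RELB (adjusted p = 0.18) and -0.39 for BCL3 (adjusted p = 0.0548). NFKBIA started at similar levels, 1780 ± 109 in Su-DHL1 and 1675 ± 96.7 in TS cells, a log2 difference of 0.09 with an interval of -0.16 to 0.33.

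The mutated hairpin A5M allowed the A5 cells to be compared at the same dose of doxycycline, with the induced A5 arrays of 84 h shared with the comparison above. A5 and A5M cells were separately transduced populations, so the hairpin and the population cannot be told apart here. Here 3 of the 10 members were called, against 43.4% of all genes, 23.3% higher and 20.1% lower. NFKBIA was at 488 ± 32.1 in A5 and 1600 ± 265 in A5M cells, a log2 fold change of -1.68 ± 0.12 (adjusted p = 3.27e-11). BCL3 was at 1909 ± 105 in A5 and 3026 ± 105 in A5M cells, -0.66 ± 0.09 (adjusted p = 1.99e-06), and its other probe set gave -0.94 (adjusted p = 0.000126). NFKB2 was higher in A5 cells, 237, 171.1 and 201.6 against 110.9, 120.6 and 117.9 in A5M cells, 0.74 ± 0.16 (adjusted p = 0.000594). Uninduced A5 cells averaged 177 ± 50.8 for NFKB2 and overlapped the induced A5 cells. The dimmer NFKB2 probe set 209636_at averaged 40.9 ± 25.8 in A5 and 15.2 ± 6.12 in A5M cells, mostly under the 40th percentile. It was not called (adjusted p = 0.166). RELA, called against uninduced cells, averaged 397 ± 22.3 in A5 and 440 ± 28.3 in A5M cells and was not called here (adjusted p = 0.267).

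A5M cells themselves differed from uninduced A5 cells in 1 of the 10 members, against 7% of all genes called, 3.24% higher and 3.76% lower. NFKBIA was at 1374.9, 1533.6 and 1891.9 in A5M cells, against 2135.3, 2083.8 and 2141.2 in uninduced A5 cells, -0.42 ± 0.12 (adjusted p = 0.0323). Leaving out either of A5M replicates 1 and 2 or any 1 uninduced replicate ended that call, with adjusted p between 0.0696 and 0.147. NFKB2 gave -0.52 in the same comparison (adjusted p = 0.0531), and without uninduced replicate 1 it gave -0.75 (adjusted p = 0.00307). The A5M cells were another transduced population, so the hairpin, doxycycline and the population cannot be told apart in this comparison.

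With the ALK inhibitors for 6 h, BCL3 had the largest change of the 10 genes, near 12-fold lower, and RELB and NFKBIA fell with both compounds. Of the 10 members, 5 were called with A2 over A1, 2 higher and 3 lower, against 33.4% of all genes called, 19.1% higher and 14.3% lower. Over A1, 3 of the 10 were called with A3, all lower, against 32.7% of all genes, 18.5% higher and 14.2% lower. The A1 arrays are shared by the A2 and A3 comparisons, so the comparisons are not independent. The median log2 fold change of the 10 was -0.28 with A2 and -0.22 with A3, beside 0.02 and 0.04 over all genes.

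BCL3 was at 311.7, 389.7 and 319.5 with A2 and at 273.8, 364.1 and 301.1 with A3, against 3730.8, 4522.1 and 4171.3 with A1. The group U had 4072.9, 4044.8 and 4112, so the A2 and A3 arrays were far below those of both A1 and U. The log2 fold change was -3.57 ± 0.12 with A2 (11.8-fold lower, adjusted p = 1.97e-12) and -3.69 ± 0.12 with A3 (12.9-fold lower, adjusted p = 1.14e-12). The other probe set, 204907_s_at, was at 115.7, 83.6 and 93.5 with A2 and 77.1, 83.4 and 97.3 with A3, against 631.5, 425.2 and 457.3 with A1. By it BCL3 fell by 2.24 on the log2 scale with A2 (adjusted p = 2.61e-08) and by 2.40 with A3 (adjusted p = 1.16e-08), so the probe sets gave the same direction and unequal sizes.

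RELB was at 90.1, 86.3 and 76.1 with A2 and at 116.6, 108.6 and 104.9 with A3, against 240.1, 187.3 and 218.9 with A1. No array with an inhibitor reached the lowest A1 array. The log2 fold change was -1.25 ± 0.14 with A2 (2.37-fold lower, adjusted p = 2.13e-06) and -0.90 ± 0.14 with A3 (1.86-fold lower, adjusted p = 7.25e-05). NFKBIA was at 509.1, 545.9 and 436 with A2 and at 475.3, 471.6 and 472.7 with A3, against 861.9, 782.4 and 1026.8 with A1. Its fold change was -0.82 ± 0.12 with A2 (1.77-fold lower, adjusted p = 5.34e-05) and -0.89 ± 0.12 with A3 (1.85-fold lower, adjusted p = 2.59e-05), again with no overlap.

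By their brightest probe sets REL and NFKB2 rose with A2. With all probe sets averaged neither was called, at 0.31 for REL (adjusted p = 0.281) and 0.08 for NFKB2 (adjusted p = 0.863). REL was at 103.9, 101.2 and 108.3 with A2, against 64.9, 61.1 and 63.6 with A1, a log2 fold change of 0.64 ± 0.18 (adjusted p = 0.0104). With A3 the REL arrays spread over 79.5, 101.7 and 61.8, overlapped A1 and were not called (0.29, adjusted p = 0.245). The dimmer REL probe set 206035_at gave -0.0091 with A2 (adjusted p = 0.988), so the rise rests on 206036_s_at. NFKB2 was at 157.7, 132.7 and 143.1 with A2, against 93.5, 103.3 and 105.5 with A1, 0.47 ± 0.14 (adjusted p = 0.0167), and lost its call without A1 replicate 1 or A2 replicate 1 (adjusted p of 0.0591 and 0.0724). U, with 104.9, 137.5 and 122.1 for NFKB2, overlapped the A2 arrays. NFKB1, RELA, NFKBIB, NFKBIE and TNFAIP3 were not called with either inhibitor, and their log2 fold changes lay between -0.34 and 0.13. RELA came nearest, at 492.7, 450.1 and 424.7 with A2 and 475.7, 469.8 and 456.6 with A3, against 593.1, 540.8 and 521.1 with A1. All RELA arrays with an inhibitor were below those with A1, with log2 fold changes of -0.27 (adjusted p = 0.0568) and -0.23 (adjusted p = 0.102). RELA with A2 passed with no filter, after quantile normalization and without A2 replicate 1 (adjusted p of 0.0423, 0.0449 and 0.0481). Its dimmer probe set 209878_s_at averaged 134 ± 11.5 with A2 and 108 ± 19.6 with A3, against 141 ± 27.6 with A1. NFKBIE with A2 passed after quantile normalization (-0.35, adjusted p = 0.0478).

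A3 and A2, at matched dose and time, were compared directly over the 10 members, and none was called, against 0.151% of all genes called, 0.0582% higher and 0.0932% lower with A3. At an unadjusted p below 0.05 by limma were 2 members, a threshold at which the share of all genes is not given. RELB was 0.35 higher with A3 than with A2, with an interval of 0.06 to 0.64, and NFKB2 was 0.39 lower, with an interval of -0.70 to -0.09. For BCL3 the difference was -0.12 (-0.38 to 0.14) and for NFKBIA -0.06 (-0.32 to 0.19), which bounds a difference between the inhibitors without showing that they act alike. A1 against U gave no call among the 10 members by limma, beside 0.0349% of all genes called, 0.0233% higher and 0.0116% lower. At an unadjusted p below 0.05 were 3 members, NFKBIA, RELB and NFKBIB, at -0.38, -0.31 and -0.46. The share of all genes at that unadjusted threshold is not given, so the 3 are not read as a difference between A1 and U. For BCL3, A1 and U differed by 0.02 (-0.24 to 0.28).

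**Figure D3:**
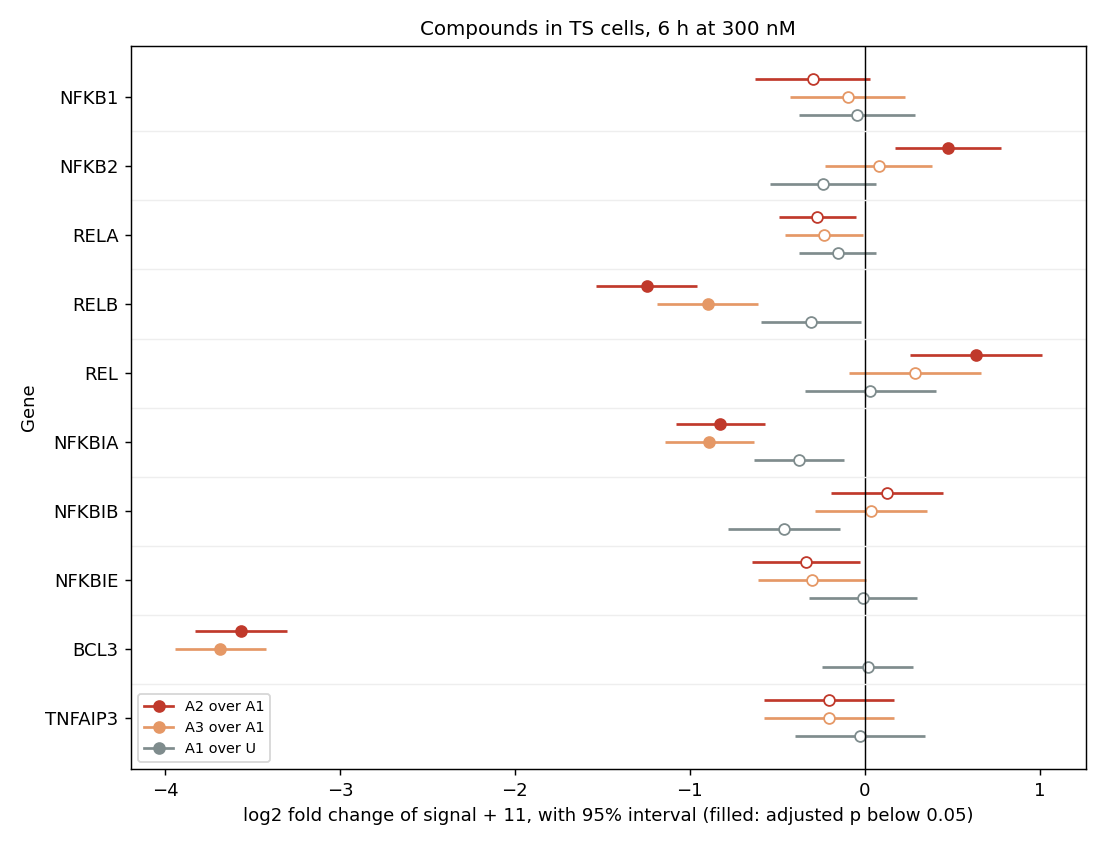
Log2 fold change of signal + 11 for the 10 genes (rows) in TS cells with A2 over A1, A3 over A1 and A1 over U, with 95% intervals; filled points passed an adjusted p below 0.05. BCL3 lies at -3.57 and -3.69 with the inhibitors and at 0.02 with A1 over U, and RELB and NFKBIA are the other members called with both inhibitors.

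Set side by side, with times and fits that differ, the hairpin and the inhibitors moved NFKBIA in one direction and differed in the size of the BCL3 change. In TS cells NFKBIA fell by 2.10 and 1.90 on the log2 scale with the hairpin at 84 and 72 h, and by 0.82 and 0.89 with A2 and A3 at 6 h. BCL3 fell by 0.58 and 0.30 with the hairpin, and by 3.57 and 3.69 with the inhibitors. RELB was called with both inhibitors and gave -0.10 and -0.24 with the hairpin, not called. These differences between the experiments were not tested.

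Over the 12 comparisons NFKBIA was called in 8 and BCL3 in 7, followed by NFKB2 and RELB in 3 each. NFKB1, RELA, REL and NFKBIE were called in 1 each, and NFKBIB and TNFAIP3 in none by limma, with 1 comparison each at an unadjusted p below 0.05. The group means of BCL3 spanned 13.2-fold and those of NFKBIA 4.79-fold, those of RELB 3.36-fold, and those of TNFAIP3 1.38-fold. In the order of group means, BCL3 showed A3 and A2 lowest with overlapping ranges, then a gap to induced TS cells at 84 h, and A1 and U highest. For NFKBIA the lowest 4 groups were induced TS cells at 72 h, A3, induced TS cells at 84 h and A2, whose neighbours overlapped, and no array of these 4 reached the next group, A1. TNFAIP3 overlapped between every pair of neighbours, with its lowest mean, 119 ± 10.8, in induced TS cells at 72 h and its highest, 164 ± 12.3, in uninduced TS cells at 84 h.

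The genes most like a member over the 11 group means were given by the Pearson correlation among 8481 other genes tested in both fits, as a description with no test. For NFKBIA they were CMAHP, HSD17B7 and AQP9, at 0.97, 0.96 and 0.96, and at 0.96, 0.96 and 0.96 without the A2 and A3 groups. For BCL3 they were ADAM19, HS3ST3A1 and SLC27A2, each at 0.98, and at 0.82, 0.76 and 0.87 over the 9 groups without A2 and A3, so those values rest in part on the inhibitor groups. For RELB they were SLC39A6, EPAS1 and CDC42EP2, at 0.93, 0.93 and 0.93, and at 0.84, 0.79 and 0.92 without A2 and A3. The group means share cell lines and array scaling, and the arrays of 1 experiment share their populations.

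Of the receptors and adaptors that feed the pathway, 17 of 21 genes were tested, and CD30 and 4-1BB carried the largest falls. With the hairpin in TS cells at 84 h, 5 were higher and 5 lower, beside 21.8% and 18.9% of all genes, with a median log2 fold change of 0.12 beside 0.06 over all genes. At 72 h, 4 were higher and 3 lower, beside 19% and 15.2%, and in Su-DHL1 cells 2 were higher and 3 lower, beside 13.9% and 10.7%. TNFRSF8, which encodes CD30, averaged 378 ± 33.1 in induced and 1419 ± 54.3 in uninduced TS cells at 84 h, 3.69-fold lower (adjusted p = 2.81e-14). In Su-DHL1 cells it averaged 652 ± 47.8 in induced and 1421 ± 114 in uninduced cells, 2.16-fold lower (adjusted p = 1.6e-09). Its response differed between the lines at 72 h by 0.73 (adjusted p = 0.00104). TNFRSF9, the costimulatory receptor 4-1BB, fell 2.88-fold in TS cells at 84 h and 2.84-fold in Su-DHL1 cells. It was also 2.15-fold lower in A5M than in uninduced A5 cells (70.2 ± 19.8 against 160.5 ± 17.2, adjusted p = 0.000364), with induced A5 cells at 49.4 ± 13.7, a difference of -0.42 on the log2 scale between A5 and A5M that was not called (adjusted p = 0.0629). TNFRSF1A, the type 1 receptor of tumour necrosis factor, rose 2.12-fold in TS cells at 84 h, LTBR, the lymphotoxin beta receptor, 2.31-fold at 72 h, and TRAF1, an adaptor of these receptors, 2.40-fold in Su-DHL1 cells. Uninduced Su-DHL1 cells had TRAF1 at 38.0 ± 11.6, near the 40th percentile of the arrays (33.3 to 44.2), so the TRAF1 fold depends on the added 11. With A2, 1 receptor or adaptor was higher and 5 lower, beside 19.1% and 14.3% of all genes, and with A3, 1 was higher and 4 lower, beside 18.5% and 14.2%. TNFRSF8 was at 188 ± 10.2 with A2 and 222 ± 10.2 with A3, against 1782 ± 261 with A1, 8.97-fold and 7.63-fold lower. IRAK1, a kinase of the Toll-like receptor arm, fell 1.94-fold with A2 and 1.67-fold with A3.

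Among the activating kinases, 10 of 12 genes were tested. In TS cells 4 were higher with the hairpin at 84 h and 2 at 72 h, and in Su-DHL1 cells 3 were higher, beside 21.8%, 19% and 13.9% of all genes called higher. No other kinase was called, so the 4 of 10 called at 84 h stood beside 40.7% of all genes called either way. Their median was 0.28 at 84 h, 0.21 at 72 h and 0.13 in Su-DHL1 cells, beside 0.06, 0.07 and 0.08 over all genes. The median at 84 h was 0.04 against A5M cells, beside 0.06 over all genes, with 3 higher, beside 23.3% of all genes. For A5M against uninduced cells the median was 0.19, beside 0.0017, with none called by limma, beside 7% of all genes. At an unadjusted p below 0.05 were 2 kinases, without a share of all genes at that threshold to set beside them. MAP3K14, the NIK kinase of the non-canonical arm that processes NFKB2, averaged 125 ± 6.89 in induced and 53.9 ± 26.2 in uninduced TS cells at 84 h, 2.21-fold higher (adjusted p = 0.00017). It was also higher in Su-DHL1 cells, 131 ± 32.8 in induced and 59.3 ± 8.21 in uninduced cells, 1.99-fold (adjusted p = 0.00163). IKBKE rose 1.40-fold, 1.59-fold and 1.54-fold in TS cells at 84 h, at 72 h and in Su-DHL1 cells. With the inhibitors the calls were CHUK, the IKK alpha kinase, lower with A2 and A3 (1.64-fold and 1.47-fold), and TAB2, an adaptor of the TAK1 kinase, higher with both (1.48-fold and 1.40-fold).

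Of the other negative regulators, 9 of 14 genes were tested. With the hairpin 4 were higher and 1 lower in TS cells at 84 h, 4 were higher at 72 h and 2 were higher in Su-DHL1 cells. The shares of all genes called either way were 40.7%, 34.2% and 24.6%, so the 2 of 9 in Su-DHL1 cells were near the background. CYLD, a deubiquitinase that dampens the pathway, rose 1.86-fold in TS cells at 84 h, 1.65-fold at 72 h and 1.75-fold in Su-DHL1 cells (adjusted p of 8.3e-05, 0.00106 and 0.000604). PDLIM2, an E3 ligase that targets RELA, averaged 89.7 ± 8.22 in induced and 31.3 ± 1.21 in uninduced TS cells at 84 h, 2.38-fold higher. NKIRAS2, a Ras-like protein that binds the beta inhibitor, rose 2.01-fold at 84 h and 1.86-fold at 72 h in TS cells. With A2, 1 was higher and 2 lower, and with A3, 3 were higher and 2 lower. The shares of all genes called either way were 33.4% with A2 and 32.7% with A3, so the counts with A2 were near the background. TNIP2, a partner of A20, averaged 225 ± 24.2 with A2 and 239 ± 29.1 with A3, against 460 ± 24.0 with A1, 2.01-fold and 1.90-fold lower.

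**Figure D4:**
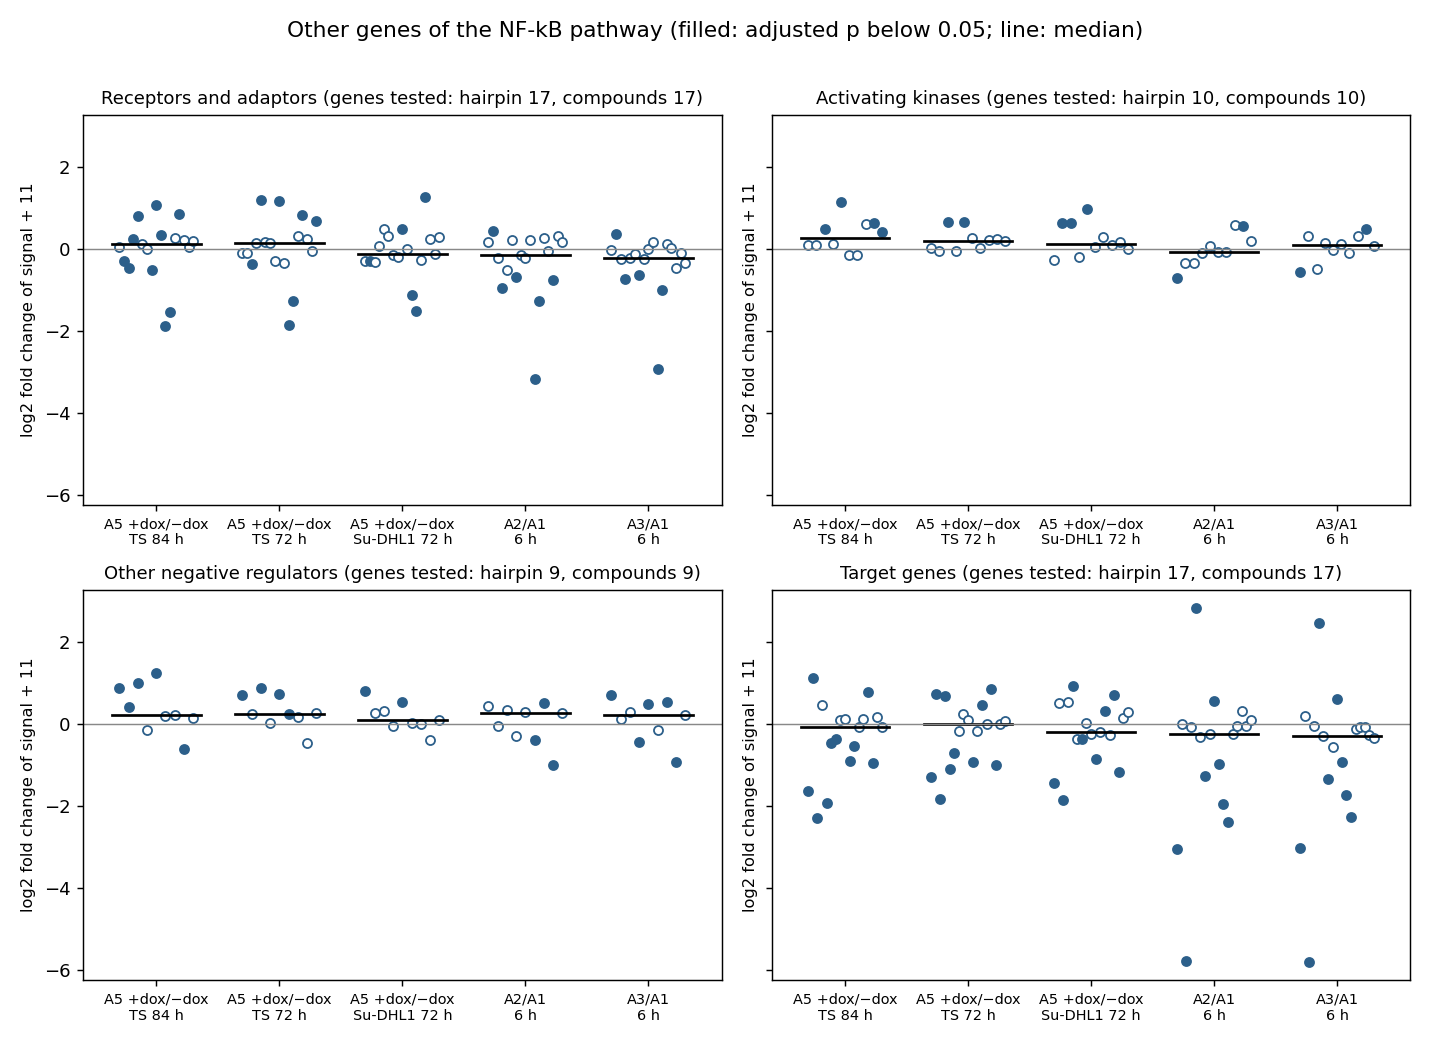
Log2 fold change of signal + 11 of the other pathway genes in 4 lists (panels), for the hairpin (TS cells 84 h and 72 h after induction, Su-DHL1 cells 72 h after it) and for A2 and A3 over A1; each point is a gene, filled when adjusted p was below 0.05, and lines are medians. The lowest points of the target gene panel are CCL20 with the inhibitors, at -5.77 and -5.80, and the highest is CCR7, at 2.85 and 2.47.

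The known target genes of NF-kB moved in both directions, and 17 of 28 were tested. With the hairpin 2 were higher and 8 lower in TS cells at 84 h, 4 higher and 6 lower at 72 h, and 3 higher and 5 lower in Su-DHL1 cells. Of all genes, 18.9%, 15.2% and 10.7% were lower and 21.8%, 19% and 13.9% higher in these comparisons. In A5M against uninduced cells 5 of the 17 were lower too, beside 3.76% of all genes. Against A5M cells 4 were higher and 6 lower with the hairpin, beside 23.3% and 20.1% of all genes. With A2 and with A3, 2 were higher and 6 lower each, with medians of -0.23 and -0.27 beside 0.02 and 0.04 over all genes. Of all genes, 19.1% were higher and 14.3% lower with A2, and 18.5% higher and 14.2% lower with A3. CCL20, a chemokine, averaged 474 ± 38.6 in induced and 2362 ± 97 in uninduced TS cells at 84 h, 4.91-fold lower, and was 3.57-fold lower in Su-DHL1 cells. A5M cells stood between, at 1316 ± 109, so that CCL20 was 2.74-fold lower in A5 than in A5M cells and 1.79-fold lower in A5M than in uninduced cells (adjusted p = 1.31e-11 and 3.83e-06). With the inhibitors it was at 5.87 ± 3.04 with A2 and 5.40 ± 1.31 with A3, against 902 ± 48.1 with A1, levels at which the log2 fold changes of -5.77 and -5.80 depend on the added 11. BCL2A1, an antiapoptotic BCL2 relative, fell 3.07-fold in TS cells at 84 h, 2.70-fold in Su-DHL1 cells, 8.20-fold with A2 and 8.09-fold with A3. CCR7, the lymph node homing receptor, fell with the hairpin in TS cells and rose with it in Su-DHL1 cells. It averaged 102 ± 9.17 in induced and 412 ± 12.8 in uninduced TS cells at 84 h, 3.76-fold lower. Against A5M cells, at 247 ± 19.5, it was 2.29-fold lower, and in A5M cells it was 1.65-fold lower than in uninduced cells (adjusted p = 0.00184). In Su-DHL1 cells its log2 fold change was 0.95 (adjusted p = 1.63e-05), and the response differed between the lines by 2.02 (adjusted p = 5.51e-07). Uninduced Su-DHL1 cells had CCR7 at only 35.6 ± 9.02, near the 40th percentile of the arrays (33.3 to 44.2). The sizes of both values therefore depend on the added 11. With the inhibitors CCR7 was at 766 ± 29.1 with A2 and 588 ± 56.1 with A3, against 97.1 ± 2.64 with A1. These lists were drawn up with earlier results of the data known, and NF-kB is only one of the regulators of their genes.

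RNA quality and marker levels moved with some of these groups. The ratio of the 3′ to the 5′ control probe set of ACTB was 1.27 ± 0.02 in induced and 1.54 ± 0.05 in uninduced TS cells at 84 h, 1.32 ± 0.05 and 1.59 ± 0.11 in induced and uninduced cells at 72 h, and 1.36 ± 0.08 and 1.39 ± 0.03 in induced and uninduced Su-DHL1 cells. It was 1.05 ± 0.03 with A2 and 1.06 ± 0.15 with A3, against 1.33 ± 0.07 with A1. With this ratio as a covariate NFKBIA remained called in TS cells at both times, in Su-DHL1 cells and with A2 and A3, and BCL3 remained called in TS cells at 84 h and with A2 and A3. The fold changes of 4 further results kept their sign and a like size but were not called there: RELA at 84 h (-0.37, adjusted p = 0.141), BCL3 at 72 h (-0.40, adjusted p = 0.0888), REL with A2 (0.58, adjusted p = 0.183) and NFKB2 with A2 (0.59, adjusted p = 0.0851). The summed signal of the 5 ALCL markers, ALK and TNFRSF8 among them, was 6328 to 7072 in induced and 11483 to 11778 in uninduced TS cells at 84 h, and 4837 to 5403 with A2 and 4597 to 5107 with A3 against 12935 to 14311 with A1. ALK is itself the target of the hairpin, and the markers did not move together. At 84 h ALK, TNFRSF8, IL2RA and GZMB were lower in induced cells. PRF1 was higher, at 4552 ± 464 against 2335 ± 151 in uninduced cells. With the inhibitors PRF1 was lower, at 615 ± 36.6 with A2 and 551 ± 67.4 with A3 against 4869 ± 449 with A1. The summed signal of the 4 myeloid markers was 348.9 to 416.1 in induced and 156.9 to 203.4 in uninduced TS cells at 84 h, most of it CSF1R, with CD14 and LYZ under the 40th percentile on every array. The part of these shifts in the other results was not tested.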

How the data were processed

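Total RNA of 33 samples was hybridised to Affymetrix HG-U133A arrays. Each deposited value is the signal intensity of 1 probe set, which per the submitters' processing notes the authors computed with MAS5 (its version is not given in the sources used here). Over the arrays, 2% trimmed means lay between 200.06 and 200.08, so no further normalization was applied, and such scaling hides any change in RNA content as a whole. Precision is limited by the 3 arrays a group.

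Of 22283 probe sets, 68 controls were left out. By the platform annotation, 19065 had 1 symbol, 1043 several and 2107 none, and only those with 1 were tested, except those of BCL3, which carry a second symbol. Positions and sequences are from RefSeq tables (GRCh38.p14); the array annotation was used for names only. Values were log2(signal + 11), 11 being the rounded 20th percentile (10.8). Probe sets at or above the 40th percentile of their array on at least 3 arrays of the fit were kept, and the brightest stood for its gene. limma 3.58.1 (R 4.3.3), with eBayes and a mean-variance trend, was fitted over 21 arrays of the hairpin experiment (9098 genes) and 12 of the compound experiment (8588 genes), with Benjamini-Hochberg adjustment over all genes, and was tested on simulated data. Figures used matplotlib 3.10.9. Named list genes are up to 3 called genes per list with the largest change, and ALK was the check of the hairpin. CSF1R, CD14 and LYZ were chosen from the marker lists after their values were seen, as was the kappaB search. Alternatives were pseudocounts of 1 and 50, no filter, quantile normalization, all probe sets averaged, only the arrays compared, a replicate block, the ACTB ratio, and each replicate left out. Members and lists were chosen with earlier results of these data known.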

Additional observations from a re-analysis of the deposited data

Results flagged for a closer look

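The response of NFKBIA to the A5 hairpin at 72 h differed between the lines by the interaction term of the fit. The log2 response of Su-DHL1 minus that of TS was 1.03 (adjusted p = 0.000593), with log2 fold changes of -0.87 in Su-DHL1 and -1.90 in TS cells, and induced arrays were below all uninduced ones in both lines. With the ACTB ratio as a covariate the difference was 0.87 and was not called (adjusted p = 0.0542). The response of BCL3 also differed by the interaction term, by 0.50 (adjusted p = 0.0316), with log2 fold changes of 0.20 in Su-DHL1 cells, not called, and -0.30 in TS cells. The BCL3 call was lost without any of 8 of the 12 arrays left out in turn (adjusted p of 0.0561 to 0.102), with all probe sets averaged (0.36, adjusted p = 0.286) and with the ACTB ratio (0.59, adjusted p = 0.111).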

How the results depend on the processing

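Of 25 calls of a member in a comparison, 15 stood under every alternative of the settings and left-out replicates, and 10 were lost under at least 1; of the other 95, 10 passed under at least 1. The cause of these changes was not tested. These counts leave out the tests by other single probe sets, by which some further calls were lost. By single probe sets, REL with A2 over A1 turned to -0.0091 (adjusted p = 0.988) by 206035_at. Members called in TS cells at 72 h were 4 with quantile normalization and 1 with the ACTB ratio. Members whose response differed between the lines numbered 1 with all probe sets averaged, 0 with the ACTB ratio and 1 to 2 with a replicate left out. Members called in A5M against uninduced cells were 0 with all probe sets averaged and with only the arrays compared, and 0 to 1 with a replicate left out. With the ACTB ratio, members called were 0 between the uninduced lines and 3 for A2 over A1, which also had 3 with all probe sets averaged. Over all genes, the ACTB ratio gave 1902 calls for the hairpin in TS cells at 84 h, 1427 at 72 h, 91 for the line difference, 2401 for A5 against A5M, 1070 between uninduced lines, 1355 for A2, 1453 for A3, 0 for A1 against U and 7 for A3 against A2. With only the arrays compared the line difference had 428 genes, A5M against uninduced 149, and A1 against U and A3 against A2 had 0 each. For A1 against U, 3 genes were called: 0 with no filter, 1 with quantile normalization, 1 with all probe sets averaged and 0 to 4 with a replicate left out. For A3 against A2, 13 genes were called: 3 with no filter, 0 with all probe sets averaged, 1 with the replicate block and 0 to 8 with a replicate left out. Same-numbered samples did not pair: the correlation of their deviations from the group means lay between -0.143 and 0.071 over the 33 pairs, and the block left the other counts within 1.5 times.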
